A study of Mus musculus with 9 samples.

Results

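Rb1 encodes the retinoblastoma protein, and its floxed alleles are meant to be cut by Cre recombinase in every tumour model of this series. The gene was followed through the array probes placed between positions 73580000 and 73740000 of chromosome 14, where Rb1 with a margin lies in the mm9 mouse assembly. The window held 105 of the 914119 autosomal probes, and a further 230 probes on both sides, out to positions 73300000 and 74000000, served as flanks. The array files name no genome build, so the statement that these probes cover Rb1 rests on the arrays having been designed on mm9. No probe is paired with an exon, and the labels do not say which part of Rb1 lies between the loxP sites, the short sequences at which Cre cuts.

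The retinoblastoma protein is a pocket protein that binds E2F transcription factors and holds back genes of DNA synthesis. Cyclin D with CDK4 or CDK6 and cyclin E with CDK2 phosphorylate it and release E2F, and CDK inhibitors such as p16 and p27 act against these kinases. In a floxed allele Cre removes the stretch between the loxP sites and leaves the rest of the gene in place. The removed part of Rb1 was taken to be short here, and its length was not known from the labels. In mammary epithelium, loss of Rb1 together with p53 is a known way to obtain tumours in mice.

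DNA copy number was measured by array comparative genomic hybridisation in 9 mouse mammary tumours of mixed strain background, each on 1 array. Tumour DNA was labelled with Cy5 and the reference, a pool of tail DNA from mice of that background without tumours, with Cy3, without dye swaps and without arrays of control DNA. All 9 tumours came from mice with floxed Rb and floxed p53 alleles. In 7 tumours Cre was driven by MMTV, a promoter active in mammary epithelium. Of these 7, 1 arose in a nulliparous mouse, 1 in a parous mouse and 5 were labelled as transplants. In the other 2 tumours, also labelled as transplants, Cre came from an adenovirus with the CMV promoter (Ad-Cre). The labels call the tumours independent, do not say whether transplants shared a donor, and give no ages. The nulliparous and parous tumours are called intact-gland tumours below. How many host or stromal cells each sample held is not given, and in DNA from a whole tumour a loss in fewer cells and a loss of fewer copies per cell cannot be told apart.

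Values are log2 ratios of tumour to pool, set to 0 at the median autosomal probe of the array. A second value, the local difference, is a probe's log2 ratio minus the median of the 20 probes on each side. It removes gains and losses of the whole region, and 100 times 2 to the power of the local difference gives the signal left in percent of the surroundings. It is a hybridisation signal: whether a low probe has fewer copies in the tumour, or a sequence that differs between tumour and pool DNA, cannot be told apart from these values. No probe sequence was used here. Without dye swaps or arrays of control DNA, a difference between the dyes at a probe cannot be told apart from these either. Over all autosomal probes the local differences had a robust SD, from their median absolute value, of 0.15 to 0.17 log2 units, depending on the array. This spread between probes holds differences that repeat from array to array as well as measurement noise. All 105 probes of the window were measured in all 9 tumours, with 0 values saturated and 0 spots dim in the tumour channel. They lay a median of 1304 bp apart, against 1782 bp over the autosomes, and the widest gap between starts was 7853 bp, from 73586998 to 73594851. A deletion shorter than such gaps can fall between probes. In the gene table of another mouse build, used here for order alone, Gm4606, Cysltr2 and Rcbtb2 precede Rb1, Itm2b and Med4 follow it, and Mir687 and Lpar6 lie inside it.

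The median of the window lay below 0 in most tumours but not in all. Its median log2 ratio was 0.14 for the nulliparous mouse and -0.15 for the parous mouse. MMTV-Cre transplants 1 to 5 stood at -0.05, 0.21, -0.13, -0.11 and -0.15, and Ad-Cre transplants 1 and 2 at -0.36 and -0.02. Ad-Cre transplant 1 was the lowest and MMTV-Cre transplant 2 the highest, and 7 of 9 tumours lay below the autosomal median. The mean was -0.07 ± 0.17 (SD, n = 9). No difference of this mean from 0 was detected (exact two-sided sign-flip permutation test, p = 0.27, adjusted p = 0.428 over 7 tests). With the mean of the window's probes in place of their median, the value was -0.13 (exact permutation p = 0.043), so the outcome depended on this choice.

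The level of the window lay near that of its chromosome in most tumours. In Ad-Cre transplant 1 the median of chromosome 14 was -0.36, as in the window, and in the nulliparous tumour it was 0.18. The mode of the autosomal log2 ratios lay 0.15 above their median in Ad-Cre transplant 1, and between -0.03 and 0.04 from it in the other 8 tumours, so centring on the mode would put Ad-Cre transplant 1 lower still. MMTV-Cre transplant 2 differed along the chromosome: its median was 0.22 in the 5 Mb bin from 70 to 75 Mb that holds Rb1 and -0.39 in the bin from 100 to 105 Mb. In the parous tumour the window stood at -0.15 while the chromosome stood at -0.01 and the flanks at -0.08.

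**Figure D1:**
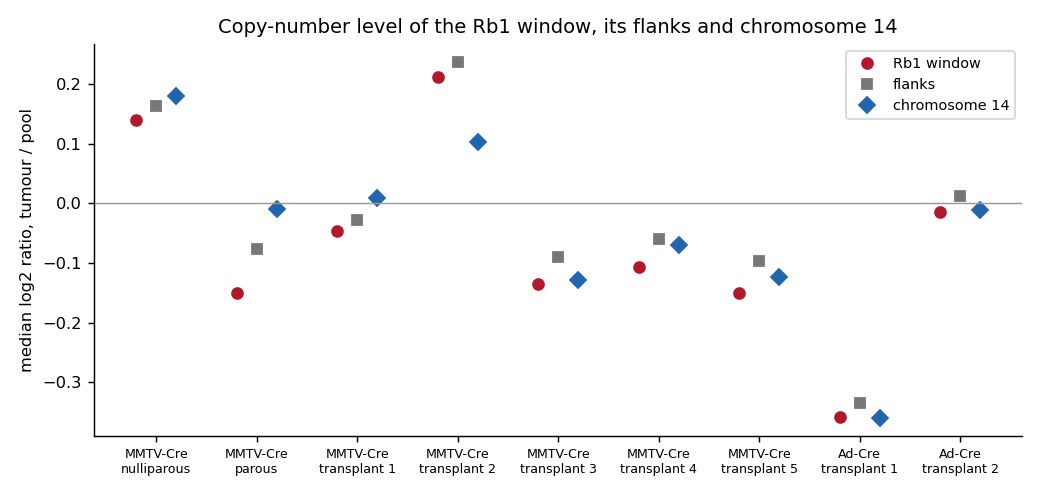
Median log2 ratio of tumour over pool (vertical axis) in the Rb1 window (circles), its flanks (squares) and all of chromosome 14 (diamonds) for each of the 9 tumours (horizontal axis). The 3 medians lie close together in most tumours and range from -0.36 in Ad-Cre transplant 1 to 0.21 in MMTV-Cre transplant 2 for the window.

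Set against its flanks, the window was slightly lower in 9 of 9 tumours. The difference was smallest in MMTV-Cre transplant 1, at -0.02, and largest in the parous tumour, at -0.07. Its mean was -0.04 ± 0.02 (SD, n = 9; exact sign-flip permutation p = 0.00391, the smallest the test can give, adjusted p = 0.0273 over 7 tests). The same sign in 9 of 9 tumours was common along the genome: 12.6% of 8657 tiled windows of as many probes were lower than their flanks in every tumour, 13% were higher in every tumour, and 8.99% had a mean as low as that of the Rb1 window. Because of this background nothing about Rb1 is read from the difference.

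Single probes inside the window carried the clearest departures. Of its 105 probes 6 were called low, meaning an adjusted p under 0.05 and a mean local difference of -0.5 or less (limma over 912822 autosomal probes, Benjamini-Hochberg adjustment). That is 5.71% of the window, against 1.89% of all probes tested and 4.35% of the flanks (10 of 230). No probe of the window was called high by 0.5 or more, against 0.847% of all probes. By adjusted p alone, with no limit on size, 35 probes were lower (33.3%, against 32.1% of all probes) and 37 were higher (35.2%, against 31.9%), so those counts were near the background. At a size limit of -0.25 the low probes numbered 13 (12.4%, against 8.81% of all probes and 15.7% of the flanks), and at -1 there was 1 (0.952%, against 0.125% of all probes and 2.17% of the flanks). At both of these limits the flanks held a larger share of low probes than the window. The arrays shared much of their probe-to-probe pattern: Pearson's r over the window's probes was between 0.60 and 0.95 for the 36 pairs of arrays, which all share the pool. It was between 0.43 and 0.86 without the 6 low probes and between 0.49 and 0.88 over all autosomal probes.

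**Figure D2:**
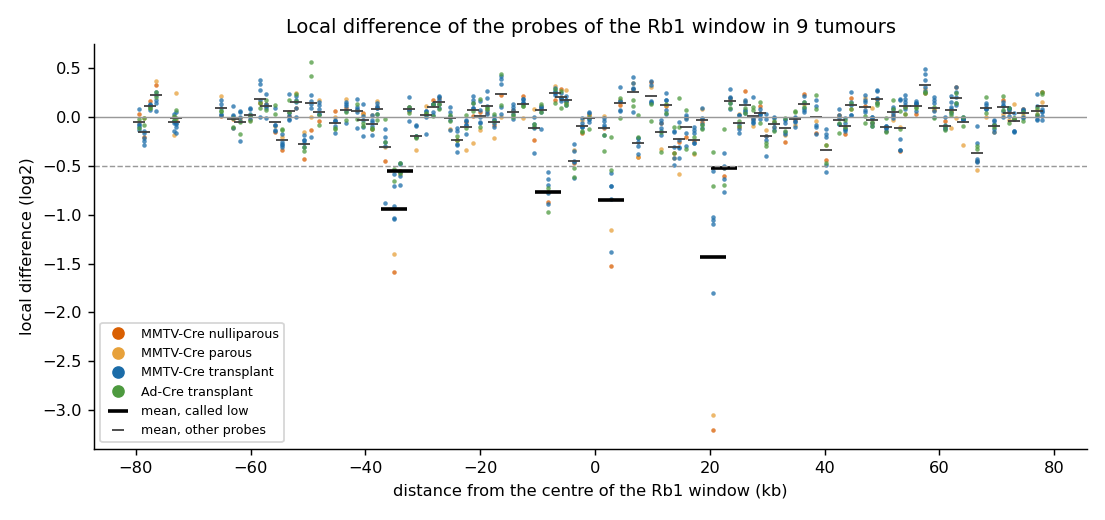
Local difference in log2 units (vertical axis) of each of the 105 probes against distance from the centre of the Rb1 window in kb (horizontal axis), 1 point per tumour coloured by group and a bar at each mean. The 6 thick bars are the probes called low, and the lowest points belong to the nulliparous and parous tumours at the fifth of them.

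The 6 low probes are described in the order of their positions and numbered Rb1 low probe 1 to 6. Because they were picked for their low mean, their means are a description. Rb1 low probe 1 (chromosome 14, 73624851 to 73624910) had a mean local difference of -0.94 ± 0.37 (SD, n = 9; adjusted p = 5.46e-06). Its values were -1.58 and -1.40 in the nulliparous and parous tumours, -0.71, -1.03, -0.91, -1.04 and -0.59 in MMTV-Cre transplants 1 to 5, and -0.66 and -0.53 in Ad-Cre transplants 1 and 2. Both intact-gland tumours lay below all 7 transplants of either model. The signal left ranged from 33.4% in the nulliparous tumour to 69.1% in Ad-Cre transplant 2.

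Rb1 low probe 2 (73625948 to 73626007) lay next to it and behaved otherwise, with nearly the same value in each tumour. Its mean local difference was -0.56 ± 0.07 (SD, n = 9; adjusted p = 4.51e-09), and the signal left lay between 61.6% and 72.0%. The next probe to the right was at 0.08, so the pair ended there. On the left the neighbour of probe 1, at 73623352, had a mean of -0.31.

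Rb1 low probe 3 (73651823 to 73651882) was also even across tumours, at -0.77 ± 0.13 (SD, n = 9; adjusted p = 1.10e-08). The lowest value, -0.98, belonged to Ad-Cre transplant 1 and the highest, -0.56, to MMTV-Cre transplant 3. Its neighbours on both sides had means above 0, at 0.07 and 0.24, so a single probe was low there.

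Rb1 low probe 4 (73662681 to 73662740) varied again, at -0.85 ± 0.43 (SD, n = 9; adjusted p = 4.52e-05). The nulliparous tumour read -1.53, the parous one -1.16 and MMTV-Cre transplant 2 -1.38, with values between -0.57 and -0.84 in the other 4 MMTV-Cre transplants. Ad-Cre transplant 1 was at -0.54 and Ad-Cre transplant 2 at -0.20, the tumour with the most signal left, 87.0%. Here too both neighbours were near 0, with means of -0.12 and 0.14.

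Rb1 low probe 5 (73680568 to 73680627) was the lowest of the window and had the widest range. Its mean local difference was -1.43 ± 1.05 (SD, n = 9; adjusted p = 0.00076), lower than in all but 0.0171% of the autosomal probes. The nulliparous tumour was at -3.21 and the parous tumour at -3.05, which leaves 10.8% and 12.0% of the surrounding signal. MMTV-Cre transplants 1 to 5 were at -1.02, -1.81, -1.10, -1.06 and -0.55, and Ad-Cre transplants 1 and 2 at -0.71 and -0.36. The intact-gland tumours did not overlap with the others. The probe was bright in the pool, at 2.14 times the autosomal median of the reference channel, and its tumour signal went from 259 in the parous tumour to 1751 in Ad-Cre transplant 2.

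Rb1 low probe 6 (73682478 to 73682537), the next one along, had a mean of -0.53 ± 0.19 (SD, n = 9; adjusted p = 4.08e-06) and ended that pair, since the probe after it was at 0.17. It was dim, with a reference signal of 0.305 times the autosomal median. MMTV-Cre transplant 1 was its lowest tumour at -0.77 and Ad-Cre transplant 1 its highest at -0.12. Just outside the limit of -0.5 lay the probes at 73656216, with a mean of -0.46, at 73726459, with -0.37, and at 73700274, with -0.34.

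**Figure D3:**
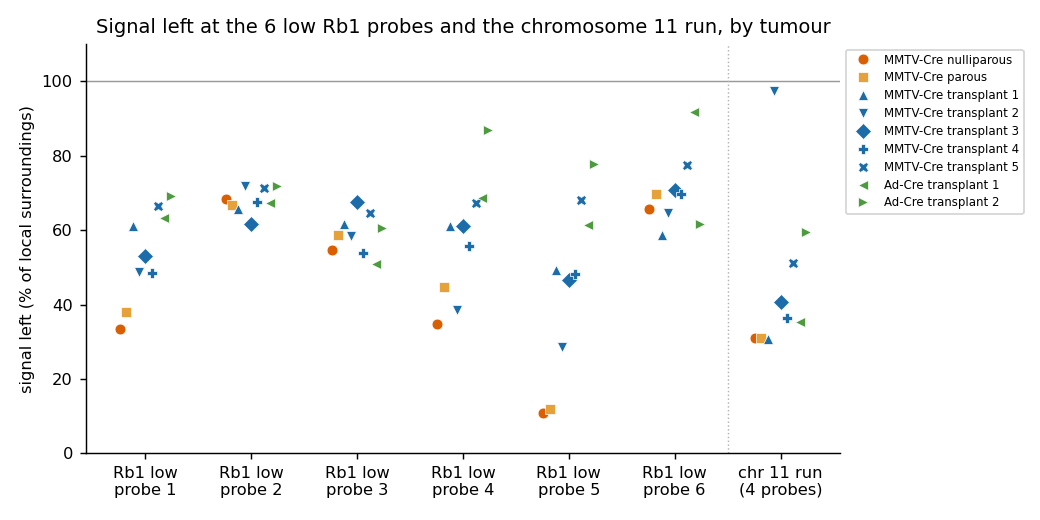
Signal left, in percent of the local surroundings (vertical axis), at the 6 low Rb1 probes and at the run of 4 low probes on chromosome 11 (horizontal axis), with 1 symbol per tumour and 100% as the level of the surroundings. At probe 5 the signal left runs from 10.8% in the nulliparous tumour to 77.8% in Ad-Cre transplant 2, and on chromosome 11 MMTV-Cre transplant 2 stands apart at 97.5%.

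The low calls of probes 2, 3 and 6 depended on the processing. With the normexp correction their means were -0.43, -0.37 and -0.31, above the limit of -0.5, while probes 1, 4 and 5 were at -0.66, -0.53 and -1.81. With loess within arrays probes 2 and 6 were at -0.40 and -0.38 and probe 3 at -0.69.

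The 6 probes fell into 2 kinds. Probes 1, 4 and 5 varied between tumours with SDs of 0.37 to 1.05 and varied together: Pearson's r over the 9 tumours was 0.89 for probes 1 and 4, 0.96 for probes 1 and 5 and 0.88 for probes 4 and 5. Probes 2, 3 and 6 had SDs under 0.2, and the highest r among the other 12 pairs was 0.28. These correlations are a description over 9 arrays that share the pool. The kinds were set apart after the values were seen, and members of both lay next to each other, as probes 1 and 2 did at 1038 bp and probes 5 and 6 at 1851 bp. The 6 probes did not form a continuous stretch: between them lay probes at the level of the surroundings.

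Averaged over the 6 probes, the local difference was -1.39 in the nulliparous tumour and -1.25 in the parous tumour. It was -0.75, -1.02, -0.75, -0.82 and -0.53 in MMTV-Cre transplants 1 to 5, and -0.60 and -0.50 in the Ad-Cre transplants. The 9 tumours averaged -0.85. At these 6 probes every tumour was below its surroundings, the intact-gland tumours lowest and Ad-Cre transplant 2 least low. The probes were picked for a low mean over these same tumours, so values below 0 are a description. Of all 105 probes of the window, 52 had a mean local difference below 0 and 53 above 0.

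No run of adjacent probes low in nearly all tumours was found in the window. A probe counted when its local difference was -0.5 or less in 7 or more tumours. By this rule 4 of the 105 probes qualified (3.81%, against 1.25% of all probes and 3.48% of the flanks, 8 of 230). Of the genome's 151 runs of 2 or more such probes 0 lay in the window. Such runs were rare among the 912822 probes, so their absence from 105 probes says little. By the limma call, 2 of the 380 adjacent low pairs among the genome's 912822 probes were Rb1's, formed by probes 1 and 2 and by probes 5 and 6. The pairs in the flanks were not counted. Single low probes were about as dense within 1 Mb of the window's centre (5.64%) as in the window (5.71%), so the number of pairs is a description. The pair of probes 5 and 6 spanned 1970 bp and had a mean of -0.98 ± 0.55 (SD, n = 9), as low as 0.0103% of all adjacent pairs. The pair of probes 1 and 2 spanned 1157 bp and had a mean of -0.75 ± 0.19.

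The surroundings of Rb1 on chromosome 14 were rich in low probes of the same kind, which bears on how the count of 6 is read. This was looked at after the window's values had been seen. Outside the window 5.64% of 656 probes within 1 Mb of its centre were called low, 4.66% within 5 Mb and 3.31% within 10 Mb, against 2.36% on the rest of chromosome 14 beyond 20 Mb and 1.86% on the other autosomes. The share of the window, 5.71%, was thus close to that of the megabase around it. Low probes with an SD of 0.3 or more over the tumours made up 2.86% of the window, 3.04% of the flanks, 2.29% of the probes within 1 Mb and 0.0813% of those on the other autosomes. The flanks thus held a slightly larger share of them than the window.

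The 5 Mb bin with Rb1 held 108 low probes among 1983, or 5.45% (95% Wilson interval 4.53% to 6.53%, which covers counting error only and treats probes as independent). It ranked 1 of 494 bins, whose median share was 1.84%, and 7 of the 20 highest bins were on chromosome 14. With a normexp background correction in place of the deposited processed signals, the bin's share was 6.45% against 3.55% over all bins and its rank was 95. With no filter on spots its rank was 2. In the 47 low probes of this bin with an SD of 0.3 or more and outside the window, the tumours stood in the same places at both ends: the median local difference was -1.91 and -1.64 in the intact-gland tumours, nulliparous first, and -1.39 in MMTV-Cre transplant 2, against -0.52 in MMTV-Cre transplant 5 and -0.35 in Ad-Cre transplant 2. The 55 with an SD under 0.3 had the same tumours at both ends, over a smaller range. Their medians were -0.82 and -0.77 in the nulliparous and parous tumours and -0.70 in MMTV-Cre transplant 2, against -0.48 in MMTV-Cre transplant 5 and -0.45 in Ad-Cre transplant 2. The pattern was thus not confined to the variable probes.

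**Figure D4:**
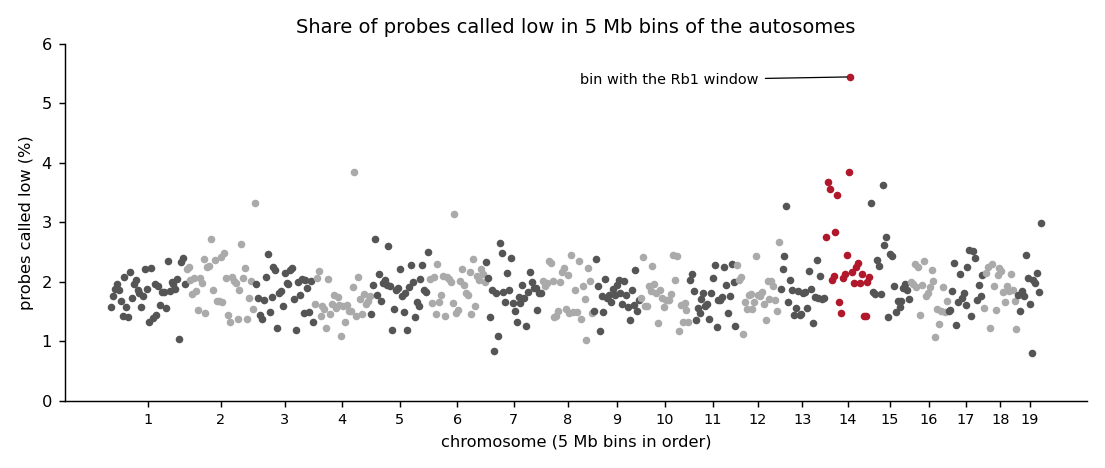
Share of probes called low (vertical axis, percent) in 494 bins of 5 Mb along the autosomes (horizontal axis, chromosomes in order), with chromosome 14 in red and the other autosomes in alternating greys. The bin with Rb1 is the highest at 5.45%, against a median bin of 1.84%.

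Other places in the genome with the tumour pattern of the 2 Rb1 pairs were sought among the 145 runs of exactly 2 probes at -0.5 or less in 7 or more tumours, by Pearson's r over 9 tumours. For probes 5 and 6 the most alike runs were on chromosome 14 at 64844633 to 64846709 (r = 0.99), 69343576 to 69345560 (r = 0.98), 73745285 to 73748750 (r = 0.97), 35712383 to 35713391 (r = 0.97) and 69870460 to 69871686 (r = 0.97). For probes 1 and 2 the highest r were 0.96, at 69870460, and 0.95, at 73745285, a run that begins 5.29 kb after the window ends. All runs with an r of 0.9 or more, 7 for probes 5 and 6 and 5 for probes 1 and 2, were among the 20 runs on chromosome 14. Of the 125 runs on other autosomes 0 reached that value, and the highest were 0.75 and 0.76.

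The second floxed gene offers a comparison with a known place in the genome. A scan of the autosomes found 1 run of 4 adjacent probes that were low in 7 or more tumours, on chromosome 11 from 69397121 to 69402566, where Trp53, the gene of p53, lies in mm9. Its mean local difference was -1.23 ± 0.56 (SD, n = 9). The signal left was 31.0% and 31.1% in the nulliparous and parous tumours, 30.8%, 97.5%, 40.7%, 36.4% and 51.2% in MMTV-Cre transplants 1 to 5, and 35.2% and 59.4% in the Ad-Cre transplants. MMTV-Cre transplant 2 alone was at the level of its surroundings there, while in the mean of the 6 low Rb1 probes it was the lowest of the 5 MMTV-Cre transplants. Probe by probe this held at probes 4 and 5, and at probe 2 it was the highest of the 5. Without it the run's mean was -1.38 ± 0.36 (SD, n = 8). The window of Rb1 held no run of this length, and the 5 Mb bin of the chromosome 11 run had a share of low probes of 2.29%, rank 62 of 494.

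Over the 9 tumours the mean of the 6 low Rb1 probes and that of the chromosome 11 run showed no relation that passed the threshold (Pearson's r = 0.25, exact permutation p = 0.53, adjusted p = 0.619 over 7 tests; Spearman's rho = 0.45, exact permutation p = 0.23). Leaving out the 2 tumours farthest from the median on chromosome 11, MMTV-Cre transplant 2 and Ad-Cre transplant 2, gave r = 0.67 (n = 7, exact permutation p = 0.0986). Leaving out MMTV-Cre transplant 2 alone gave r = 0.71 (n = 8, exact permutation p = 0.0465) and rho = 0.76 (exact permutation p = 0.0368), so the value turned on this 1 tumour. The intact-gland tumours were among the lowest at both places.

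**Figure D5:**
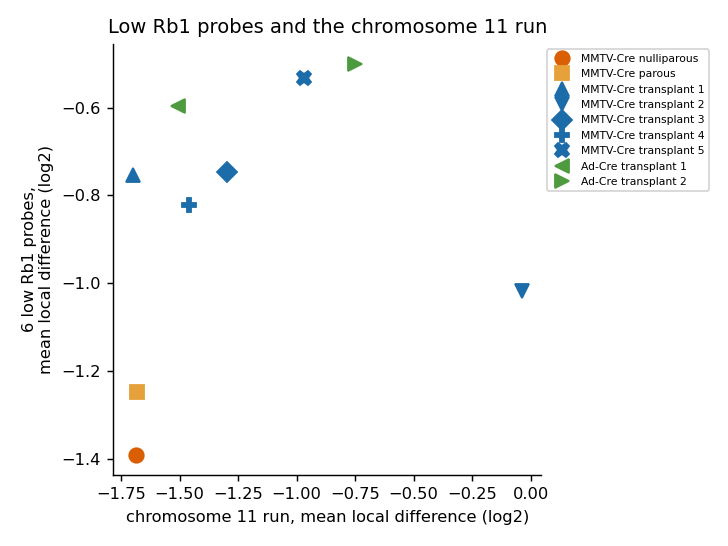
Mean local difference of the 6 low Rb1 probes (vertical axis, log2) against that of the 4-probe run on chromosome 11 (horizontal axis, log2), with 1 symbol per tumour. MMTV-Cre transplant 2 lies at the right edge, near 0 for chromosome 11 and at -1.02 for Rb1, and the intact-gland tumours lie at the lower left.

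Transplanted and intact-gland MMTV-Cre tumours differed at Rb1 low probe 5. Its mean local difference was -1.11 in the 5 transplants and -3.13 in the 2 intact-gland tumours, a difference of 2.02 ± 0.24 (SE), and it was higher in 5 of 5 transplants (limma over 912681 probes, adjusted p = 0.0115). It was the only probe of the 105 that passed (0.952%, against 0.218% of all probes higher and 0.0148% lower). In the flanks 2 of 230 probes passed as higher (0.87%), a share close to that of the window. Without the parous tumour the adjusted p from limma was 0.142, and with the normexp correction the difference was 1.38 with an adjusted p of 0.140. Both intact-gland arrays were scanned on scan day 3 and the 5 MMTV-Cre transplants on scan days 1 and 2, so scan day and transplantation cannot be told apart. The 2 Ad-Cre tumours were scanned on day 3 as well and read -0.71 and -0.36 at this probe.

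The mean of the 6 low probes was -0.77 ± 0.17 (SD, n = 5) in the transplants and -1.32 ± 0.10 (SD, n = 2) in the intact-gland tumours. The groups did not overlap, and the difference of 0.55 gave p = 0.0476 in the exact two-sided permutation test, the smallest its 21 groupings allow, and an adjusted p of 0.167 over 7 tests. The 3 probes with an SD of 0.2 or more gave 1.05 and the other 3 gave 0.038, values with no test, since a gap between these tumours itself raises the SD that set the probes apart. The median of the whole window did not separate these tumours, at -0.05 ± 0.15 (SD, n = 5) and -0.01 ± 0.21 (SD, n = 2), a difference of -0.04 (exact permutation p = 1).

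Over all 9 tumours no test of Ad-Cre against MMTV-Cre at Rb1 passed its threshold. The mean of the 6 low probes was -0.55 ± 0.07 (SD, n = 2) with Ad-Cre and -0.93 ± 0.30 (SD, n = 7) with MMTV-Cre, a difference of 0.38 (exact two-sided permutation over 36 groupings, p = 0.111, adjusted p = 0.259 over 7 tests). MMTV-Cre transplant 5, at -0.53, lay between the 2 Ad-Cre tumours. The window median differed by -0.15 (-0.19 ± 0.24 against -0.03 ± 0.15; exact permutation p = 0.306), and without Ad-Cre transplant 1 the difference was 0.02. For single probes limma called 0 of the 105 and 0 of 912819 genome-wide after adjustment (0% of all probes), while 12 of the 105 (11.4%) had an unadjusted p under 0.05, against 4.69% of all probes and 9.57% of the flanks.

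Scan day 3 alone held both models, as 2 Ad-Cre transplants and the 2 intact-gland MMTV-Cre tumours, so Cre delivery and transplantation cannot be told apart within it. There limma called 4 of the 105 probes (3.81%, against 1.43% of all probes), all higher with Ad-Cre, and 3 of them were the variable low probes 1, 4 and 5. A gap between these tumours itself raises the SD by which those 3 probes were set apart, so that match is a description. At probe 5 the Ad-Cre tumours averaged -0.53 and the MMTV-Cre tumours of that day -3.13, a difference of 2.60 ± 0.12 (SE; adjusted p = 0.000102). At probe 1 the means were -0.60 and -1.49 (difference 0.90, adjusted p = 0.00331), and at probe 4 they were -0.37 and -1.34 (difference 0.97, adjusted p = 0.0227). The other called probe, at 73610549, was at 0.49 with Ad-Cre and -0.07 with MMTV-Cre (adjusted p = 0.0210) and is named after its values were seen.

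Against the pool without local correction, limma at an adjusted p under 0.05 was used to count probes. Of the 105 probes 32 had a log2 ratio below 0 (30.5%, against 24.1% of all probes and 27.4% of the flanks). Above 0 there was 1 (0.952%, against 23.3% of all probes and 12.6% of the flanks). These counts follow the level of the whole region in each tumour as well as single probes. With scan day as a random block they were 49 and 5, and without Ad-Cre transplant 1 the number above 0 was 8.

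The other genes of the retinoblastoma pathway could be placed by chromosome alone, because probes are not linked to genes in the files. The list held 21 genes on 12 chromosomes, and its values are medians of whole chromosomes, with exact sign-flip permutation tests adjusted over 19 autosomes, of which 3 passed higher (15.8%) and 2 lower (10.5%). The kinase gene Cdk6 lies on chromosome 5, which was at 0.16 ± 0.12 (SD, n = 9; adjusted p = 0.0186), and Skp2, whose product marks p27 for degradation, lies on chromosome 15, at 0.18 ± 0.13. Ccnd1 and Ccne1, which encode cyclins D1 and E1, lie on chromosome 7, at -0.15 ± 0.11, above 0 in 0 of 9 tumours. Rbl1, a pocket protein gene related to Rb1, and E2f1 lie on chromosome 2, at -0.14 ± 0.14 (adjusted p = 0.0297), below 0 in 8 of 9 tumours. The other 15 genes, among them Rb1 on chromosome 14 (-0.05 ± 0.15, adjusted p = 0.524) and Trp53 on chromosome 11 (0.01 ± 0.13), lie on chromosomes that did not pass. These are values of chromosomes and say nothing of a gene's own copy number.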

How the data were processed

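Rb1 and the lists below were chosen with earlier results of these data known. Arrays were scanned and processed with Agilent Feature Extraction 10.5.1.1 on array design 027414, per the file headers. The processed intensity of either channel, as deposited, had its background subtracted and the dyes normalised, whereas the median intensity is raw. The authors' series table holds log10 ratios of red over green. The genome build is not given in the sources used here, and probes of 10 autosomes lie beyond the last gene of the gene table provided (GRCm38.p6), which was used for names alone. A further neighbouring gene is not reported here.

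Log2 ratios of the processed signals were taken per probe and centred on each array's autosomal median. Between 1597 and 2115 of 967261 spots per array were left out as dim in the reference channel or flagged as non-uniform or outliers. The median reference signal was between 1068 and 1147 and the median tumour signal between 1067 and 1157, and precision is limited by having 9 arrays. Limma 3.58.1 (R 4.3.3) was fitted to all autosomal probes with Benjamini-Hochberg adjustment and tested on simulated data, and single values were tested by exact permutation over tumours (Python 3.11.15, numpy 2.4.6, scipy 1.17.1). Without control arrays the spread of control DNA is in no test.

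Named probes are those of the window called low and their neighbours, and the 5 runs most alike to each Rb1 pair. The pathway list was Rb1, Rbl1, Rbl2, E2f1, E2f2, E2f3, Ccnd1, Ccnd2, Ccnd3, Ccne1, Ccne2, Cdk2, Cdk4, Cdk6, Cdkn1a, Cdkn1b, Cdkn2a, Cdkn2b, Skp2, Trp53 and Mdm2. Alternatives were normexp correction (offset 50) of the median signals, loess within arrays (span 0.3), the series table, other spot filters, centring on the mode, 10 or 50 neighbours, other size limits, scan day, and each tumour left out. The classes of low probes by SD and the share of low probes by position were added after seeing the data.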

Additional observations from a re-analysis of the deposited data

Results flagged for a closer look

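Among the 5 MMTV-Cre transplants, transplant 2 stood apart in the median log2 ratio of the Rb1 window, at 0.21 against values of -0.05 to -0.15 in the others. Its gap to the next tumour was 0.714 of the group's range, and 18 groups of values were examined in this way with 1 such case, where chance gives about 1 case in 20 groups. The mean of the 6 low Rb1 probes differed by 0.55 between transplanted and intact-gland MMTV-Cre tumours (exact permutation p = 0.0476, adjusted p = 0.167 over 7 tests). Rb1 low probe 5, at 73680568, differed by 2.02 between the same groups (limma, adjusted p = 0.0115). All tumours of these groups were MMTV-Cre tumours, and scan day cannot be told apart from transplantation in them.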

How the results depend on the processing

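The mean of the window against its flanks stayed below 0 in all 20 alternatives run, from -0.07 to -0.02. The count of 6 low probes was 3 with normexp, 13 at a size limit of -0.25, 1 at -1 and 35 by adjusted p alone, and between 4 and 6 in the other 17 alternatives. With normexp the share of probes called low over all bins was 3.55%, against 1.90% in the main setting. The 3 low probes among the window's 105 were thus no excess over the genome with normexp. The window median against the pool was -0.13 with the mean in place of the median (exact permutation p = 0.043) and 0.083 in the 2 tumours of the first scan day. Probes above the pool numbered 10 with normexp, 6 with loess and 5 with scan day as a random block, which also gave 49 below; each tumour left out gave between 1 and 8 above and between 29 and 44 below. For transplants minus intact-gland tumours the low-probe difference was 0.34 with normexp (exact permutation p = 0.238), 0.038 over the even probes and 0.47 to 0.62 with an MMTV-Cre tumour left out, where fewer groupings cannot reach 0.05; the probes called numbered 0 with normexp and 0 to 3 with a tumour left out; and the window median ranged from -0.18 to 0.11, the latter without the nulliparous tumour. For Ad-Cre minus MMTV-Cre the window median ranged from -0.32 to 0.018 with a tumour left out, and 4 probes were called within 1 scan day. Pearson's r with the chromosome 11 run ranged from 0.070 to 0.71 with a tumour left out, the latter without MMTV-Cre transplant 2. The causes were not tested. Array number and probe spacing limit what can be seen of a short deletion. No paired analysis was possible because the labels give no replicate numbers shared between groups.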
